A study of Rattus norvegicus with 23 samples.

Results

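Of the 30562 genes in the deposited table for rat femora, 9 genes of the red cell lineage are described. These 9 were chosen by symbol for their roles in erythropoiesis and the red cell membrane, with earlier results of these data known. They are 3 transcription factors (Gata1, Klf1 and Tal1), 2 receptors (Epor and Tfrc), the nuclear protein gene Hemgn and 3 genes of the red cell surface and its skeleton (Slc4a1, Sptb and Ermap). All 9 were in the table and all 9 passed the filter on low counts that left 15271 genes for testing. Polyadenylated RNA of femora from female Wistar rats was sequenced in 23 bulk libraries. The treated rats were the metabolic osteoporosis model (MetOP), made by feeding a high-fat diet together with L-NAME, which blocks nitric oxide synthases, and given semaglutide (n = 5), PYY (n = 4) or a combination of both (n = 5). Semaglutide is an agonist of the GLP-1 receptor, and PYY stands for the gut peptide PYY3-36. The model given saline (MetOP saline, n = 5) was the reference for the drugs. The model itself was set against a healthy control group (n = 4), which per its titles had a standard diet and saline. Those titles carry an unexplained tag, oLN, and the titles of the PYY libraries name saline beside PYY. The high-fat diet and L-NAME are therefore shared by all 3 drug groups and by MetOP saline. The treatment field of the 4 PYY libraries ends in a different number in each (PYY3-36, PYY3-37, PYY3-38 and PYY3-39), while their titles are alike, so that all received the same peptide rests on the titles. The sources used here give no doses, durations or ages, and an abbreviation, lfd, in the titles of the MetOP libraries is not explained. Whether each library of a group is a different rat is not stated, so p-values measure only the spread between these samples, which may be technical.

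Red cells form in the bone marrow from progenitors that divide and then fill with haemoglobin before losing their nucleus. Gata1 and Tal1 bind DNA together in a complex that switches on erythroid genes, and Klf1, a zinc finger factor, acts on globin and membrane genes through CACCC motifs. The hormone erythropoietin, made mainly in the kidney, keeps the progenitors alive through its receptor Epor, and Tfrc, the transferrin receptor, brings in the iron that haem needs. Slc4a1 (band 3) is the anion exchanger of the red cell membrane and anchors the spectrin skeleton, of which Sptb is the beta chain. Ermap is an erythroblast membrane protein of the immunoglobulin superfamily, and Hemgn is a nuclear protein of haematopoietic cells that lies downstream of Gata1. Of these, Gata1 and Tal1 are also used by megakaryocytes and mast cells, Tfrc by dividing cells of all kinds, and Sptb by skeletal muscle.

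Upstream sequences were available from RefSeq (build GRCr8) for 8 of the 9 genes, in 9 windows of 250 bases before to 50 bases after a gene start, with a pair of windows for Hemgn. The 4 below are shown because they carry the motifs of the regulators named above, or belong to the gene whose values stood apart from the rest. Capitals mark a GATA motif (AGATAA or TGATAA on either strand, so TTATCT or TTATCA as printed) or a CACCC motif (GGGTG on the other strand), and sequences run 5′ to 3′ on the gene's strand.
Klf1 (chr19:40158602-40158901, minus strand): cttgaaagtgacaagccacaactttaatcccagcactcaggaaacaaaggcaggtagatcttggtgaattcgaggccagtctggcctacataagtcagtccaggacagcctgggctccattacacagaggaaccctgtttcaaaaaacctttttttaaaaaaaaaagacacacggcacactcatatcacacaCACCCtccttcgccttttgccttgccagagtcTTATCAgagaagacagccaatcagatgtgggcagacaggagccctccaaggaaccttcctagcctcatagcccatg
Epor (chr8:28770273-28770572, minus strand): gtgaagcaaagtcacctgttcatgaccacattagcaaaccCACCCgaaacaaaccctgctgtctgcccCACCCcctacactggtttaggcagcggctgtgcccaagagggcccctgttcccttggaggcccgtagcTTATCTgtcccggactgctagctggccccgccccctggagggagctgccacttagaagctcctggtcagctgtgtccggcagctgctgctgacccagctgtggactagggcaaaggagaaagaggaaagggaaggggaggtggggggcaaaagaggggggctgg
Gata1 (chrX:17201387-17201686, plus strand): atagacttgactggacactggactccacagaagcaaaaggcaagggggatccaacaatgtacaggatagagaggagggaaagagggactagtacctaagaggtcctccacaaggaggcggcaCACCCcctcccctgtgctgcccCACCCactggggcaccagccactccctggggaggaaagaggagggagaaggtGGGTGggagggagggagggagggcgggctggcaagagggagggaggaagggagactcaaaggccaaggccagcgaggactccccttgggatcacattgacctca
Sptb (chr6:101170229-101170528, minus strand): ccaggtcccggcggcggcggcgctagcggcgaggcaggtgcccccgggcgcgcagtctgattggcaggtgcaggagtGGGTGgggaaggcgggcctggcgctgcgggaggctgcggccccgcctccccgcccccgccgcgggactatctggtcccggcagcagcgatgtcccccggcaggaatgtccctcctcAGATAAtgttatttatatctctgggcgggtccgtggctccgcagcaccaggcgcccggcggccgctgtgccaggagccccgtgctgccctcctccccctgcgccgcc
A GATA motif was found in 5 of the 9 windows, namely those of Klf1, Epor, Sptb and Ermap and 1 of the pair for Hemgn, and in 18.9% of all 33469 windows in the table. A CACCC motif was found in 6 of the 9 windows, against 54.9% of all windows. Klf1, Epor, Sptb and Ermap held both motifs, as did 8.39% of all windows. An E-box (CANNTG, both strands), the motif of Tal1, was found in 8 of the 9 windows and in 72.1% of all windows. These matches are descriptions of the letters in the windows, not binding sites.

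On the mRatBN7.2 build, per the deposited table, the regulators lie at chrX:14529702-14537530 (Gata1, plus strand), chr19:23250631-23253758 (Klf1, minus strand) and chr5:128587701-128600976 (Tal1, plus strand). Epor lies at chr8:20489678-20494257 and Tfrc at chr11:68163413-68185257, both on the minus strand. Hemgn (chr5:60679633-60698669), Slc4a1 (chr10:87306872-87323117), Sptb (chr6:95310326-95437118) and Ermap (chr5:132789991-132802847) lie on the minus strand as well.

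Total counts were between 19.25 and 40.65 M per library, of which 46.1% to 83.9% fell on mitochondrially encoded genes. The erythroid identity of part of the RNA was plain, since the alpha globin gene Hba-a1 had 22038 or more counts in every library and Alas2, the first enzyme of haem synthesis in red cells, had 347 or more. Epo itself had 0 counts in all 23 libraries. Muscle RNA was also present in every library, with 4931 or more counts of Ckm, the muscle creatine kinase. In bulk tissue, fewer cells of a type and less RNA per cell cannot be told apart.

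Slc4a1 was the most abundant of the 9 per unit of length and Epor the least. The median FPKM (fragments per kilobase of gene per M, as deposited) over the 23 libraries was 37.3 for Slc4a1, 24.4 for Hemgn, 18.9 for Tfrc, 7.25 for Sptb, 6.97 for Klf1, 5.6 for Tal1, 3.04 for Gata1, 1.78 for Ermap and 1.14 for Epor. The ranges over libraries overlapped between all neighbours in this order. The spread between libraries was wide for most genes, with a highest CPM (counts per M, scaled by TMM) 33.5 times the lowest for Slc4a1 and 42.8 times for Klf1. It was narrow for Tfrc, at 5.23 times, and for Sptb, at 4.81 times. Epor had 0 counts in combination library A251 and Ermap had 0 counts in semaglutide library A238, where 3 counts would equal 0.101 CPM and 0.117 CPM.

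Semaglutide libraries had lower levels than MetOP saline libraries in 8 of the 9 genes, and Sptb was the exception. The median log2 difference of the 9 was -1.52, against -0.04 for all genes. The comparison asks what the drug did on top of the model. None of the differences passed the edgeR quasi-likelihood test after Benjamini-Hochberg adjustment over all genes, with adjusted p-values between 0.389 and 0.707 for the 9. The test called 0.0% of all genes in this comparison, and the DESeq2 Wald test and limma voom likewise called 0 of the 9 genes here and in every other comparison. At an unadjusted p under 0.05, 6 of the 9 genes were lower, against 7.24% of all genes. The genes other than Sptb varied together from library to library, as described below. This and the later counts of the 9 are therefore not counts of independent genes. In each comparison, the direction taken by most of the 9 was also that of 47.5% to 53.7% of all genes. The groups overlapped for all 9 genes, while 4.47% of all genes did not overlap.

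Gata1 had 2.15, 4.04, 8.64, 1.15 and 3.7 CPM in the 5 semaglutide libraries, against 5.62, 5.16, 23.1, 17.5 and 7.69 CPM in the 5 MetOP saline libraries. Semaglutide library A241 lay above 3 of the MetOP saline libraries, and the other 4 lay below all of them. The log2 fold change of Gata1 was -1.58 ± 0.60 (SE; edgeR adjusted p = 0.393). Klf1 had 0.9, 7.01, 14.8, 5.54 and 1.88 CPM in semaglutide libraries, against 13.9, 3.24, 25.5, 36.1 and 18 CPM in MetOP saline libraries. Its log2 fold change was -1.68 ± 0.77 (SE; edgeR adjusted p = 0.418). MetOP saline libraries A226 and A224, at 3.24 and 13.9 CPM, lay within the semaglutide range. Tal1 averaged 17.5 ± 13.8 CPM in semaglutide libraries and 48.2 ± 26.5 CPM in MetOP saline libraries (SD, n = 5 each), a log2 fold change of -1.46 ± 0.60 (SE).

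The receptors for transferrin and for erythropoietin were lower too. Tfrc had 58.9, 76.4, 104, 51.4 and 84.6 CPM in semaglutide libraries, against 126, 81.2, 134, 250.2 and 126 CPM in MetOP saline libraries. Its difference was the smallest among the 8 lower genes but the most precise, at a log2 fold change of -0.93 ± 0.31 (SE; edgeR adjusted p = 0.389). Epor averaged 1.46 ± 1.05 CPM in semaglutide libraries and 4.14 ± 2.65 CPM in MetOP saline libraries (SD, n = 5 each). Its log2 fold change was -1.50 ± 0.94 (SE; edgeR adjusted p = 0.535).

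At the membrane, the exchanger Slc4a1 and the surface protein Ermap were lower, and the spectrin Sptb was not. Slc4a1 had 20.3, 130.0, 258, 68.3 and 43.1 CPM in semaglutide libraries, against 187, 80.1, 476, 569 and 174 CPM in MetOP saline libraries. Its log2 fold change was -1.52 ± 0.76 (SE; edgeR adjusted p = 0.445). Ermap averaged 5.20 ± 5.37 CPM in semaglutide libraries and 21.3 ± 18.1 CPM in MetOP saline libraries (SD, n = 5 each), with a log2 fold change of -2.04 ± 0.91 (SE). Hemgn, the nuclear protein gene, averaged 36.2 ± 34.3 CPM in semaglutide libraries and 109 ± 66.5 CPM in MetOP saline libraries (SD, n = 5 each), with a log2 fold change of -1.59 ± 0.69 (SE). Sptb had 93.9, 112, 116, 65.1 and 96.4 CPM in semaglutide libraries, against 52.5, 55.3, 101, 113 and 68.2 CPM in MetOP saline libraries. Its log2 fold change was 0.31 ± 0.30 (SE; edgeR adjusted p = 0.707).

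With each of the 10 libraries left out in turn, 8 of the 9 genes were lower in semaglutide libraries, and the median log2 difference of the 9 ran between -2.10 and -1.14. The number with an unadjusted p under 0.05 ran between 2 and 7, and was 2 without semaglutide A242 or A243 or MetOP saline A229 or A232, and 3 without semaglutide A238. Lower levels were not confined to erythroid genes in this comparison. Of the lists of other cells and of proliferation, 25 of 25 cell cycle genes (median log2 difference -1.49, 19 with an unadjusted p under 0.05), 12 of 12 osteoblast genes (-2.33, 10), 13 of 13 macrophage genes (-1.26, 7) and 11 of 12 tested megakaryocyte genes (-0.99, 1) were lower in semaglutide libraries. Other lists were less uniform. Of the tested genes, 10 of 14 neutrophil (median log2 difference -0.46), 6 of 10 B lineage (-0.29), 9 of 12 endothelial (-0.095) and 5 of 7 mast cell and basophil genes (-0.44) were lower. None of the genes in these 4 lists had an unadjusted p under 0.05. No gene of any of these lists passed the edgeR test. Osteoblast genes took 0.0494% to 0.268% of non-mitochondrial counts in semaglutide libraries and 0.12% to 2.43% in MetOP saline libraries, and the part of these lists in the members' difference was not tested. Skeletal muscle genes differed in the other direction: 18 of 18 tested muscle genes of a list of 20 were higher in semaglutide libraries, none with an unadjusted p under 0.05. The muscle genes took 9.38% to 21.7% of the counts on non-mitochondrial genes in semaglutide libraries and 8.16% to 15.6% in MetOP saline libraries, and neither Acta1 nor Ckm was at 0 in any library. With the muscle level of each library as a covariate, 8 of the 9 genes were still lower, the median log2 difference was -1.23 and 2 had an unadjusted p under 0.05.

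**Figure D1:**
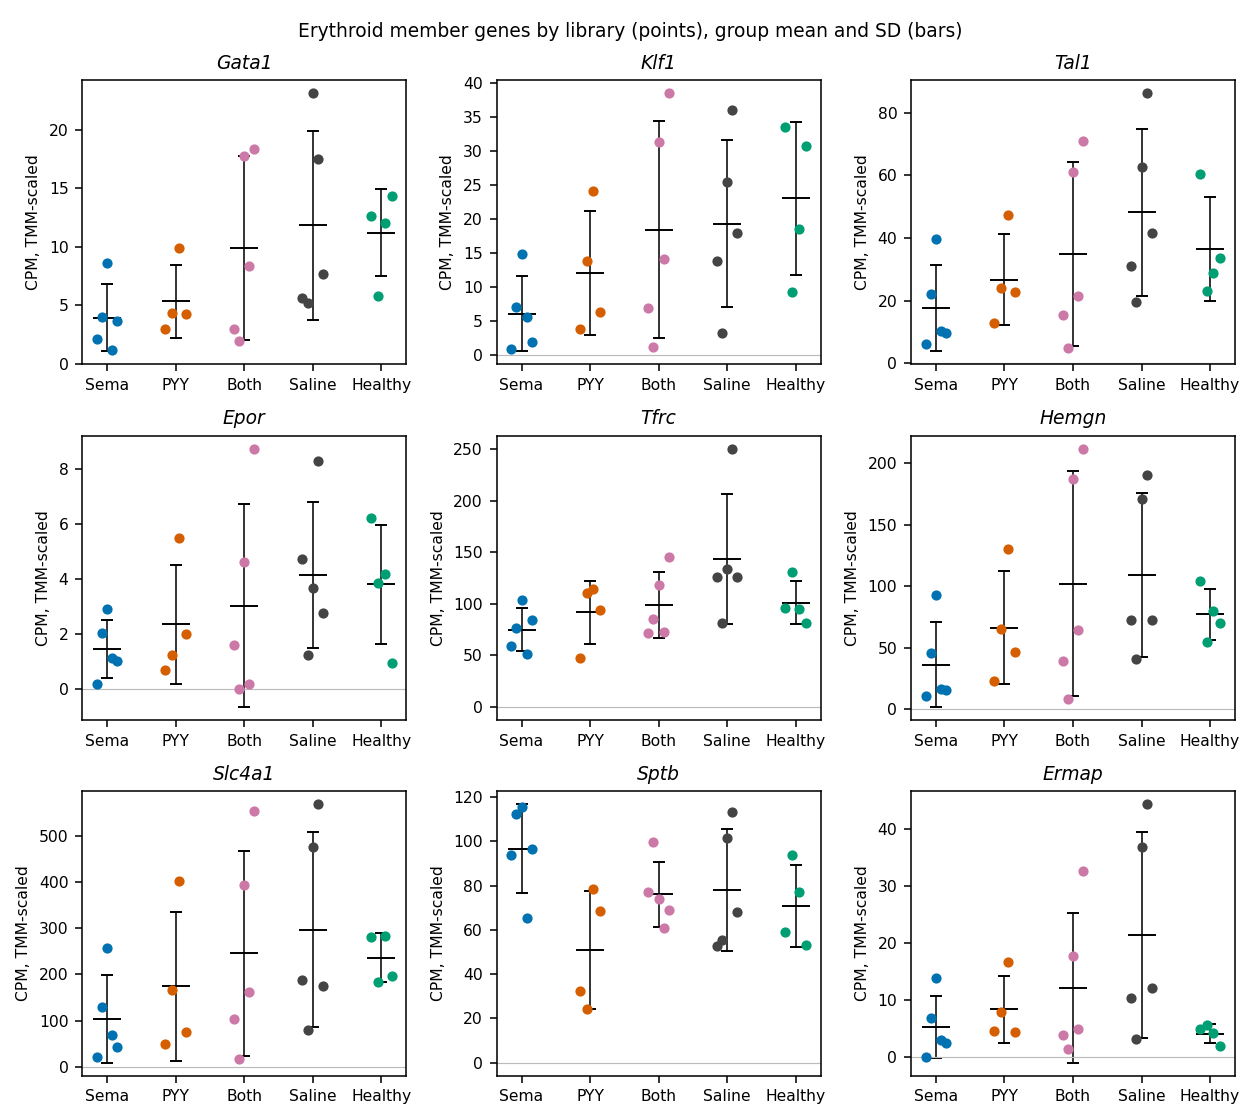
CPM (vertical axis, TMM-scaled) of the 9 genes in semaglutide (Sema), PYY, combination (Both), MetOP saline (Saline) and healthy control (Healthy) libraries. Points are libraries and bars show the mean and SD. Sptb alone had its highest group mean in semaglutide libraries, at 96.6 CPM, while the other 8 had their lowest mean there, except Ermap, whose mean was lower in healthy control libraries at 4.05 CPM.

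PYY libraries had lower levels of all 9 genes than MetOP saline libraries, with none past the edgeR test. The median log2 difference of the 9 was -0.77, against -0.007 for all genes, of which 50.5% were lower. The adjusted p-value was 1.00 for all 9, the test called 0.0% of all genes, and 0 of the 9 had an unadjusted p under 0.05 in the lower direction, against 1.38% of all genes. Slc4a1 had 49.3, 167, 403 and 75.5 CPM in the 4 PYY libraries, with a log2 fold change from MetOP saline of -0.77 ± 0.80 (SE). Library A219 held the highest PYY value for all 9 genes, and the groups overlapped for all 9 genes, while 1.93% of all genes did not overlap. Tfrc had 47.8, 111, 115 and 93.6 CPM, with a log2 fold change of -0.64 ± 0.33 (SE). Sptb had 32.5, 24.1, 78.5 and 68.3 CPM in PYY libraries, which include the 2 lowest values of the study. Its log2 fold change was -0.62 ± 0.32 (SE; edgeR adjusted p = 1.00). The direction was lower for all 9 genes with each library left out, at median log2 differences between -1.19 and -0.38. Lower levels were not confined to erythroid genes here either. Of the tested genes, 25 of 25 cell cycle (median -0.69), 13 of 14 neutrophil (-1.30), 11 of 12 megakaryocyte (-1.36) and 17 of 18 muscle genes (-0.59) were lower. Endothelial genes went the other way, with 12 of 12 higher (0.80), as did 8 of 12 osteoblast genes (list median 0.09). No gene of these lists passed the edgeR test.

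In combination libraries the 9 genes spanned nearly the whole range of the study. Slc4a1 had 103, 17.0, 393, 161 and 555 CPM in the 5 combination libraries, and Hemgn had 39.0, 8.13, 187, 64.4 and 212 CPM. Libraries A253 and A320 were high and A251 was the lowest of all 23 libraries for Slc4a1, Hemgn and Tal1. Relative to MetOP saline, all 9 genes had a negative log2 fold change, with a median of -0.27, none past the edgeR test (adjusted p = 1.00 for all 9, with 0.0% of all genes called). None had an unadjusted p under 0.05 in the lower direction, against 1.6% of all genes, and no gene of the 9 was free of overlap, against 0.399% of all genes. The count of 9 lower genes became 5 without combination A251, MetOP saline A229 or MetOP saline A232, and the median ran between -0.72 and -0.03 with 1 library left out. Ermap had the largest difference, 12.1 ± 13.1 CPM in combination libraries and 21.3 ± 18.1 CPM in MetOP saline libraries (SD, n = 5 each), at a log2 fold change of -0.82 ± 0.88 (SE).

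Set against semaglutide alone, the combination had 8 of the 9 genes higher, by a median of 1.22 on the log2 scale, and Sptb lower. No gene passed the edgeR test (adjusted p 0.816 to 0.850, 0.0% of all genes called). At an unadjusted p under 0.05, 3 genes were higher, against 3.99% of all genes: Gata1 at 1.33 ± 0.60, Hemgn at 1.49 ± 0.69 and Klf1 at 1.61 ± 0.77 (log2 fold change ± SE). The count of 3 became 0 without semaglutide A238, A242 or A243, without combination A253 or A320, under limma voom, and with the muscle covariate, became 1 without semaglutide A240, and reached 6 without semaglutide A241 and 5 without combination A251. The median log2 difference was 0.55 without combination A320, 1.84 without semaglutide A241 and 0.42 with the muscle covariate. The groups overlapped for all 9, and 0.57% of all genes did not overlap. Against PYY alone, the combination had all 9 genes higher by a median of 0.54, with no unadjusted p under 0.05 in that direction, against 2.05% of all genes, and the edgeR test called 0.0% of all genes. Without combination A320, 4 were higher. The groups overlapped for all 9 genes there too, against 1.59% of all genes without overlap.

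The interaction term asks whether semaglutide and PYY together differed from the sum of their separate log2 effects. It was positive for all 9 genes, with a median of 2.02 against 0.03 for all genes, and it passed the edgeR test for none (adjusted p = 0.999 for all 9, 0.0% of all genes called). Gata1 at 2.47 ± 0.88, Hemgn at 2.21 ± 1.00, Tal1 at 1.84 ± 0.86 and Tfrc at 1.04 ± 0.45 (log2 ± SE) had an unadjusted p under 0.05, which makes 4 of 9 against 2.89% of all genes. Sptb had the smallest term, at 0.27 ± 0.44. The count of 4 became 1 without semaglutide A238 or A242, PYY A215, combination A320 or MetOP saline A232. It became 2 without semaglutide A243, PYY A216 or A220, combination A253 or MetOP saline A229. It became 6 without combination A248 or MetOP saline A226, and 7 without semaglutide A241, PYY A219 or combination A251. It was 2 under limma voom and with the muscle covariate, and 7 with the DESeq2 Wald test. The cell cycle genes also had positive terms, 25 of 25, with a median of 1.81 and 13 at an unadjusted p under 0.05. This term and the comparisons with MetOP saline share the same saline libraries.

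**Figure D2:**
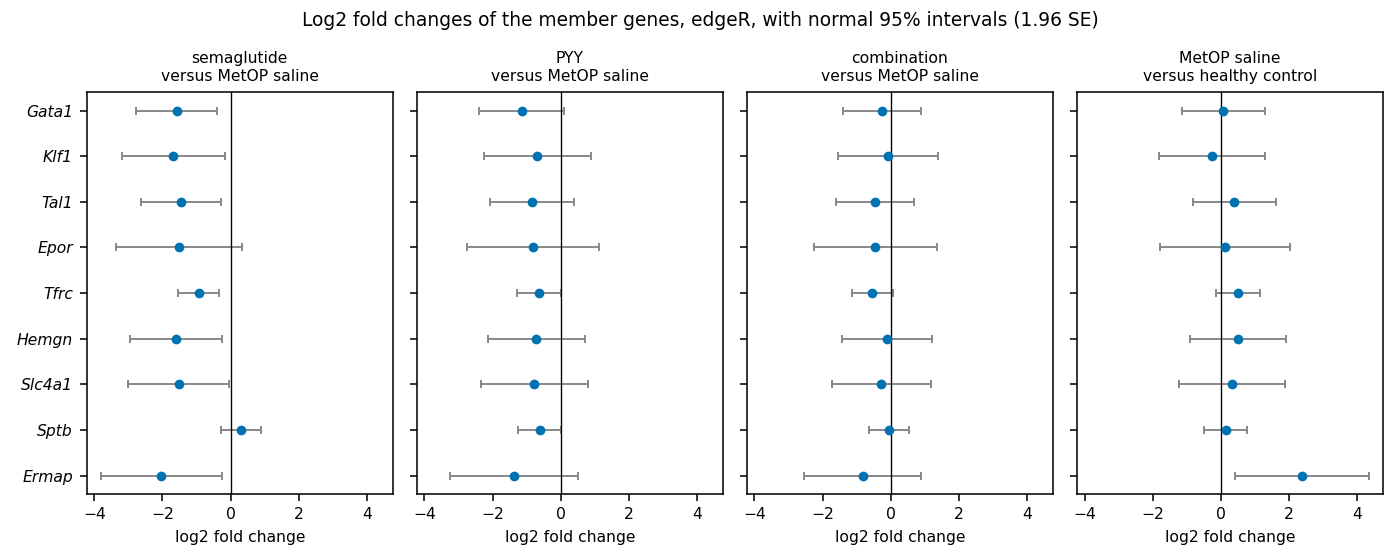
Log2 fold changes (horizontal axis) from the edgeR fit for the 9 genes in 4 comparisons, with bars of normal 95% intervals. In semaglutide versus MetOP saline 8 points lie below 0 and Sptb lies above it, and in MetOP saline versus healthy control Ermap, at 2.39, lies far from the other 8 points.

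In the model given saline, Ermap had the largest difference from healthy control of the 9 genes, and none of the 9 passed the edgeR test. Ermap had 10.3, 3.11, 36.8, 44.3 and 12.0 CPM in MetOP saline libraries, against 4.84, 5.50, 4.06 and 1.78 CPM in healthy control libraries. Of the MetOP saline libraries, 4 lay above all healthy control libraries, and A226 lay within the healthy range. The log2 fold change of 2.39 ± 1.01 (SE) did not pass the edgeR test (adjusted p = 0.710, unadjusted p = 0.0263), and it stayed between 1.78 and 2.67 in 16 fits. The other 8 genes had log2 fold changes between -0.25 and 0.50, with Klf1 the 1 gene below 0. The edgeR test called 0.0% of all genes, the unadjusted p was under 0.05 for 1 of the 9 in the higher direction against 4.68% of all genes, and no gene of the 9 was free of overlap against 2.78% of all genes. Of the 9 genes, 8 were higher in MetOP saline, and 4 were higher without MetOP saline A232.

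Ermap was next set against Slc4a1 within each library, a ratio that depth and scaling do not touch. Ermap had 55.4, 38.9, 77.3, 78.0 and 68.8 counts per 1000 Slc4a1 counts in MetOP saline libraries, against 17.3, 30.1, 14.3 and 9.02 in healthy control libraries. The groups did not overlap. The ratio was 0, 52.5, 53.3, 43.9 and 56.5 in semaglutide libraries, 90.3, 46.6, 41.3 and 56.4 in PYY libraries, and 37.7, 75.3, 45, 30.1 and 58.8 in combination libraries. Thus 18 of 19 MetOP libraries lay above the highest healthy control library, the lowest of them, combination A318, at 30.07 against 30.06. The exception was semaglutide A238, which had 0 Ermap counts, where 3 counts would equal 5.78 per 1000. Of the 36 ratios between pairs of the 9 genes, 3 did not overlap between MetOP saline and healthy control, and all 3 had Ermap in them, paired with Slc4a1, Klf1 and Epor. The ratio to Slc4a1 was chosen after its values were seen and carries no test. The share of non-overlapping ratios among pairs of all genes was not computed, so the count of 3 of 36 has no background beside it. Relative to Hemgn, the ranges of MetOP saline (76.6 to 233 per 1000) and healthy control (25.2 to 100 per 1000) overlapped.

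**Figure D3:**
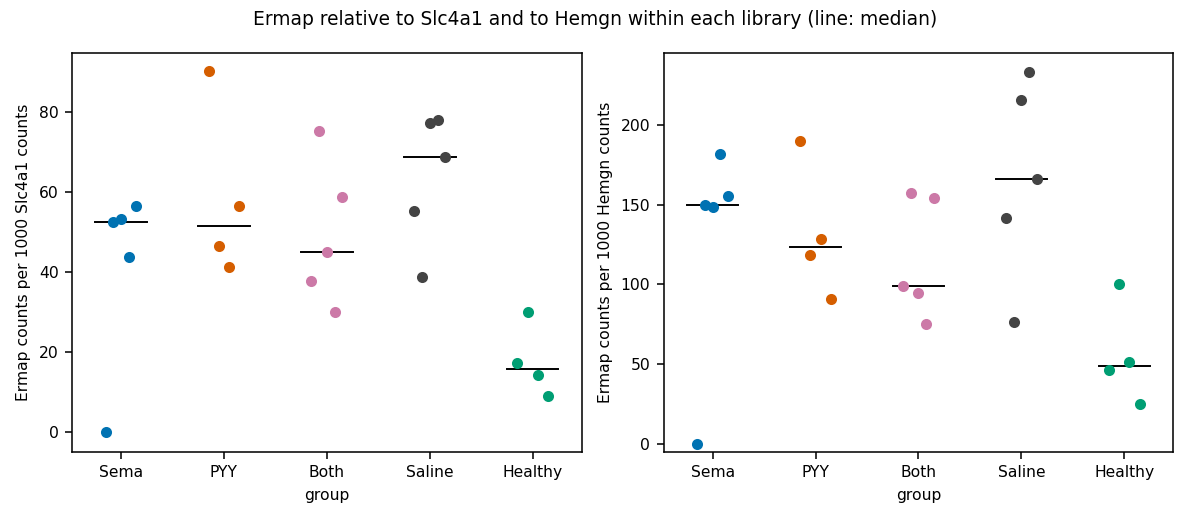
Ermap counts per 1000 counts of Slc4a1 (left) and of Hemgn (right) in each library, with a line at the group median. Relative to Slc4a1 the MetOP saline libraries lie between 38.9 and 78.0 and the healthy control libraries between 9.02 and 30.1, while relative to Hemgn these groups overlap.

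The genes other than Sptb varied together from library to library. Over the 23 libraries, the 21 pairs formed by Gata1, Klf1, Tal1, Epor, Hemgn, Slc4a1 and Ermap had Pearson's r of log2 CPM between 0.651 and 0.981 and Spearman's rho between 0.694 and 0.979. Both measures passed for all 21 pairs (permutation p adjusted over 36 pairs at most 0.000872). Tal1 and Hemgn were the closest pair, at r = 0.981 (rho = 0.979). With the 2 libraries farthest from the median left out, r over these pairs was 0.596 to 0.969, and after removal of group means it was 0.633 to 0.982. The 7 pairs of Tfrc with these genes had r between 0.631 and 0.745 (rho 0.681 to 0.812), or 0.632 to 0.793 without the 2 farthest libraries. All of these values share the library's depth and scaling.

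**Figure D4:**
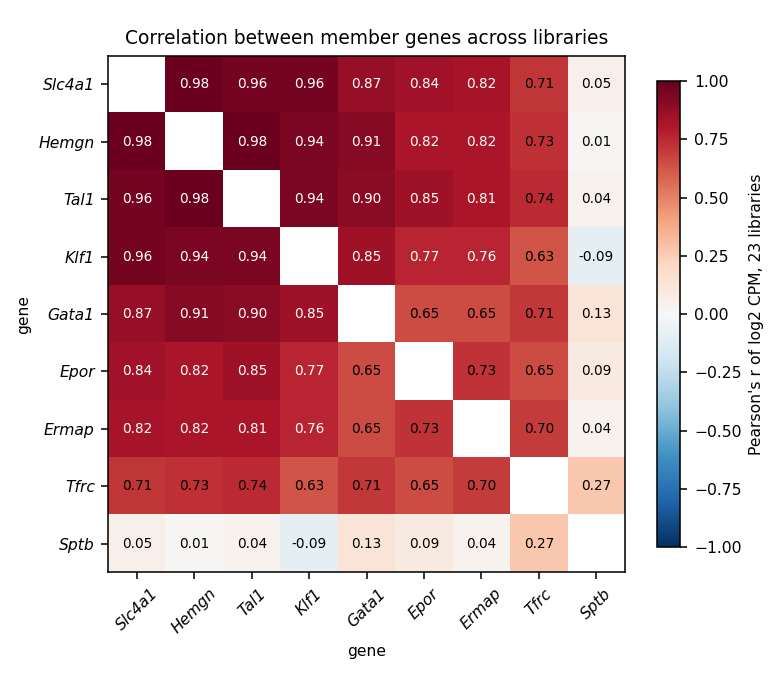
Pearson's r of log2 CPM between each pair of the 9 genes over 23 libraries, as a colour scale with its value in each cell. The block of 7 genes at the top left holds values of 0.65 or more, the Tfrc row lies between 0.63 and 0.74 for those genes, and the Sptb row lies between -0.09 and 0.27.

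Proliferation genes varied with the same genes. Against a list of 25 cell cycle genes, such as Mki67 and Top2a, r was 0.973 for Hemgn (rho 0.959), 0.950 for Tal1 (rho 0.931), 0.948 for Slc4a1 (rho 0.941), 0.902 for Klf1 (rho 0.896) and 0.898 for Gata1 (rho 0.913). It was 0.794 for Epor (rho 0.799), 0.746 for Ermap (rho 0.815) and 0.723 for Tfrc (rho 0.775). All 8 passed (permutation p adjusted over 90 relations at most 0.000233), with r of 0.681 to 0.961 without the 2 farthest libraries. For Sptb, r was -0.07. Globin genes varied with the genes other than Sptb too, at r of 0.589 (Tfrc) to 0.934 (Slc4a1). Other cell lists also varied with the genes other than Sptb. Their r was 0.573 (Tfrc) to 0.869 (Slc4a1) with neutrophil genes and 0.591 (Ermap) to 0.785 (Tal1) with megakaryocyte genes. It was 0.424 (Tfrc) to 0.825 (Klf1) with macrophage genes and 0.551 (Tfrc) to 0.712 (Tal1) with mast cell and basophil genes. With B lineage genes it was 0.416 (Tfrc) to 0.666 (Slc4a1). All of these r values passed except those of Tfrc with macrophage and with B lineage genes. For these 2 the adjusted permutation p of r was 0.0618 and 0.0671, while that of rho was 0.0129 and 0.0349. With endothelial genes, r was -0.218 (Tfrc) to 0.121 (Klf1), and none passed. Among 12084 other genes with a mean of at least 1 CPM, those most like the mean of the 9 included Myo5c (r = 0.972), Ypel5, Car2, Ahsp, Kel, Emb and Prdx2 (r = 0.955). Kel is a red cell surface protein, Car2 is a carbonic anhydrase and Ahsp a chaperone of alpha globin.

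Sptb stood apart from the other 8 genes. Its r with them was between -0.09 and 0.27 (rho 0.003 to 0.22), none of the 8 pairs passed (permutation p adjusted over 36 pairs at least 0.260), and r was -0.10 to 0.40 without the 2 farthest libraries. Semaglutide library A238 had rank 17 of 23 for Sptb (rank 1 is the lowest library), while its mean rank over the other 8 genes was 2. Combination library A251 had rank 19 for Sptb and a mean rank of 2.50 for the others. Sptb was instead correlated with a list of 18 tested skeletal muscle genes, at r = 0.544 and rho = 0.528 (permutation p adjusted over 90 relations 0.0147 and 0.0169), r = 0.449 without PYY A216 and combination A320, and r = 0.419 after removal of group means. For the other 8 genes, r with the muscle list was between -0.42 and -0.19, and none passed. Sptb correlated negatively with lists of osteoblast genes (r = -0.59, rho = -0.58) and endothelial genes (r = -0.62, rho = -0.66), at adjusted permutation p-values of 0.00507 and 0.00420, and without the 2 farthest libraries r was -0.44 and -0.73. Sptb overlaps Plekhg3, on the opposite strand, only at chr6:95310326-95310359. Plekhg3 had 3209 counts over all libraries against 46756 for Sptb. The labels describe preparation both with and without strand marking, so whether strand was kept is open.

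**Figure D5:**
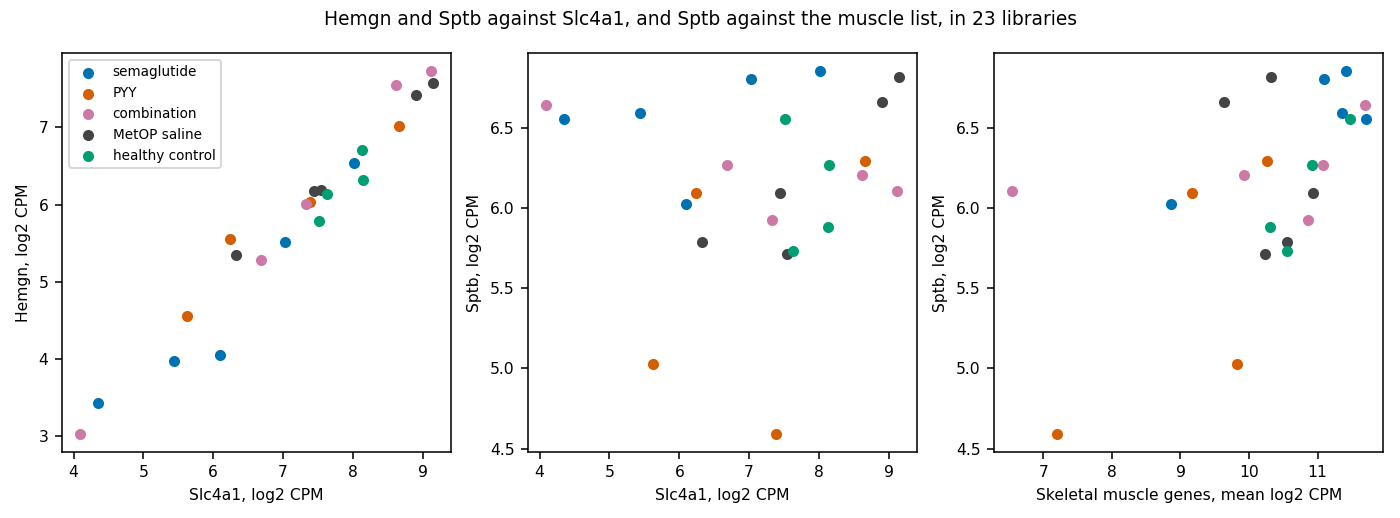
Log2 CPM of Hemgn against Slc4a1 (left), of Sptb against Slc4a1 (middle), and of Sptb against the mean log2 CPM of the muscle genes (right), 1 point per library coloured by group. Hemgn follows Slc4a1 (r = 0.977), Sptb does not (r = 0.05), and Sptb is higher where muscle genes are higher (r = 0.544).

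The difference in Sptb between the 2 drugs given alone was the closest of any of the 9 genes to the threshold. Sptb had 93.9, 112, 116, 65.1 and 96.4 CPM in semaglutide libraries, against 32.5, 24.1, 78.5 and 68.3 CPM in PYY libraries. Of the semaglutide libraries, 4 lay above all PYY libraries, and A242 lay below PYY A219 and A220. The log2 fold change was 0.93 ± 0.32 (SE; edgeR unadjusted p = 0.00878, adjusted p = 0.184), and the adjusted p was between 0.0592 and 0.646 in 16 fits, lowest without PYY A220. Sptb was the 1 gene of the 9 with an unadjusted p under 0.05 in the higher direction, against 6.93% of all genes, and the test called 0.00655% of all genes, which is 1 gene, the collagen receptor Ddr2. The other 8 genes were lower in semaglutide libraries, at log2 fold changes of -1.0 to -0.29. The median of all 9 was -0.67, and it was -0.18 without PYY A219, -1.16 without semaglutide A241, -0.40 without semaglutide A238 and -0.11 with the muscle covariate. No gene of the 9 was free of overlap, against 5.87% of all genes. The muscle list took a median of 17.9% of non-mitochondrial counts in semaglutide libraries and 9.45% in PYY libraries, and all 18 tested muscle genes were higher in semaglutide libraries. With the muscle level as a covariate the Sptb difference was 0.69 (edgeR adjusted p = 0.646).

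The ratio of Tfrc to Sptb counts in semaglutide libraries did not overlap that in PYY or MetOP saline libraries, but overlapped that in combination libraries. It was 0.628 to 0.897 in semaglutide libraries, against 1.37 to 4.61 in PYY libraries and 1.32 to 2.40 in MetOP saline libraries. It was 0.858 to 2.10 in combination libraries, which overlapped semaglutide libraries, and 1.24 to 1.63 in healthy control libraries. The ratios of Gata1 and of Tal1 to Sptb also did not overlap between semaglutide and MetOP saline, and these 3 were the only non-overlapping ratios of the 36 in that comparison, while Tfrc to Sptb was the only one in semaglutide versus PYY. These ratios were likewise chosen after their values were seen and are a description. The share among pairs of all genes was not computed here either. For single genes, 4.47% of all genes did not overlap in semaglutide versus MetOP saline and 5.87% in semaglutide versus PYY.

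Most other genes of the pathway were also lower with semaglutide. Lists of erythroid transcription, erythropoietin signalling, red cell membrane, iron and haem, and globin genes held 81 other genes, of which 75 were tested. Like the members, these lists were chosen with earlier results of these data known, so their counts are a description. In semaglutide versus MetOP saline, 68 of the 75 were lower and 7 higher, at a median of -0.80, against -0.04 for all genes. An unadjusted p under 0.05 was reached by 18 of the lower ones, against 7.24% of all genes. Some of the 75, such as Ahsp and Kel, followed the members closely, so these are not independent genes either. None passed the edgeR test. Rhag and Rhd, of the Rh complex in the membrane, had log2 fold changes of -1.99 ± 0.87 and -1.63 ± 0.71 (SE). Slc25a37, which carries iron into mitochondria, had -1.59 ± 0.63, and the iron exporter Slc40a1 had -1.41 ± 0.54. Ahsp and Hbb, the beta globin gene, had -1.57 ± 0.66 and -1.51 ± 0.73. Globin genes can have close copies within the alpha or within the beta family, so how reads were shared among such rows is uncertain.

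Cbfa2t3 went the other way from most of the lists. This gene, a corepressor found with Tal1, averaged 3.39 ± 1.26 CPM in semaglutide libraries and 1.51 ± 0.59 CPM in MetOP saline libraries (SD, n = 5 each), a log2 fold change of 1.15 ± 0.56 (SE; edgeR adjusted p = 0.435). It was also higher in combination libraries, at 1.32 ± 0.56, and in PYY libraries, at 0.89 ± 0.58. Socs3, which was lower, is a feedback inhibitor of cytokine receptors such as Epor and had a log2 fold change of -1.12 ± 0.53 in semaglutide libraries. In PYY versus MetOP saline, 65 of the 75 were lower, at a median of -0.54, and in combination versus MetOP saline 55 were lower, at a median of -0.19. Of all genes, 50.5% and 47.5% were lower in these comparisons, at medians of -0.01 and 0.02. Kit, the stem cell factor receptor, averaged 0.192 ± 0.210 CPM in combination libraries and 0.985 ± 0.450 CPM in MetOP saline libraries (SD, n = 5 each). Its log2 fold change was -2.32 ± 1.10 (SE) and did not pass the edgeR test. Low counts limit it, with 0 to 0.503 CPM in combination libraries. In PYY libraries Kit was higher than in MetOP saline libraries, at 0.92 ± 1.09 (log2 fold change ± SE). In MetOP saline versus healthy control, 49 of the 75 were higher, at a median of 0.17, against 52.5% of all genes at a median of 0.04. In the direction named, 0 of the 75 had an unadjusted p under 0.05 in PYY libraries (1.38% of all genes), 1 in combination libraries (1.6% of all genes) and 4 in MetOP saline libraries (4.68% of all genes), so the last 2 counts are near the background. None of the 75 passed the edgeR test or limma voom in any of these comparisons. The DESeq2 Wald test called 0 of those with an adjusted p, which 26 of the 75 lacked in PYY versus MetOP saline and 1 lacked in semaglutide versus MetOP saline.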

How the data were processed

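Raw counts per Ensembl gene, 1 column per library, and FPKM values for the same genes were deposited by the authors. Per the submitters' processing notes, the genome was mRatBN7.2 and the tools included DESeq2 1.42.0. Which aligner and counter made the counts is not given in the sources used here. Library preparation is described in the labels both with and without strand marking, so counts of overlapping and near-identical genes are uncertain. All libraries carry 1 batch label.

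The members and gene lists were chosen with earlier results of these data known. Counts of all 23 libraries were fitted together with edgeR 4.0.16 (TMM, filterByExpr, robust quasi-likelihood, 5 groups, 18 residual degrees of freedom, R 4.3.3), and p-values were adjusted over 15271 genes by the Benjamini-Hochberg method at 0.05. The standard error is the log2 fold change divided by the square root of F. The biological coefficient of variation was 69.9% in common. The deposited FPKM values served only for levels between genes. Log2 CPM for correlations used a prior count of 2, with 100000 permutations, whose smallest p is 1e-05. The level of a list in a library averages the log2 CPM of those of its genes that were tested.

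The genes named are the 9 members, up to 3 genes of smallest p from each pathway list in each comparison with MetOP saline (a selection of these is given), genes among the 10 most like the members, and Epo and globins as level checks. Some genes that this rule names are not reported here. The pathway lists hold 81 genes. Alternatives were DESeq2 size factors, no filter on low counts, the DESeq2 Wald test, limma 3.58.1 voom, removal of mitochondrial genes, a muscle covariate and leaving out each library. The edgeR fit was tested on simulated data. Replicate numbers are those of the titles.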

Additional observations from a re-analysis of the deposited data

How the results depend on the processing

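No member passed the adjusted threshold in any of the 30 settings, and the smallest adjusted p was 0.0592, for Sptb in semaglutide versus PYY without PYY A220. The DESeq2 Wald test called more genes than edgeR, none of them a member (2 members had no adjusted p in PYY versus MetOP saline): 89 in semaglutide versus MetOP saline, 5 in PYY versus MetOP saline, 2 in combination versus MetOP saline, 12 in combination versus semaglutide, 10 in combination versus PYY, 487 in semaglutide versus PYY, 3 for the interaction and 47 in MetOP saline versus healthy control. Voom called 1 gene in combination versus PYY. With 1 library left out, edgeR called 0 to 1 gene in PYY versus MetOP saline, 0 to 3 in combination versus semaglutide, 0 to 2 in combination versus PYY and 1 to 1021 in semaglutide versus PYY, with 1021 without PYY A220 and 3 without semaglutide A242. The cause was not tested.

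The count of lower members ran between 5 and 9 in combination versus MetOP saline, and that of higher members between 4 and 9 in combination versus PYY and between 4 and 9 in MetOP saline versus healthy control. Some log2 fold changes changed sign, and the cause was not tested. Under voom these were Gata1 in MetOP saline versus healthy control (-0.20), Sptb in combination versus MetOP saline (0.0040), Epor in combination versus semaglutide (-0.52), and Tal1 (-0.031) and Epor (-1.27) in combination versus PYY. With the muscle covariate they were Gata1 (-0.0535) and Epor (-0.11) in MetOP saline versus healthy control, Sptb in combination versus MetOP saline (0.00627) and Epor in combination versus PYY (-0.0805).

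Sign also changed when 1 library was left out. In combination versus MetOP saline the ranges were -0.82 to 0.10 for Slc4a1, -0.55 to 0.23 for Hemgn, -0.15 to 0.13 for Sptb, -0.53 to 0.28 for Klf1 and -0.60 to 0.14 for Gata1. In combination versus PYY they were -0.045 to 1.28 for Slc4a1, -0.17 to 0.21 for Tfrc, -0.055 to 0.75 for Tal1, -0.26 to 1.08 for Ermap and -0.55 to 1.16 for Epor. In semaglutide versus PYY, Epor ran between -1.11 and 0.054. In MetOP saline versus healthy control they were -0.041 to 0.57 for Slc4a1, -0.030 to 0.31 for Sptb, -0.61 to 0.020 for Klf1, -0.32 to 0.26 for Gata1 and -0.30 to 0.46 for Epor. The other member values kept their sign in every setting. No paired analysis was possible because each library number belongs to 1 library of 1 group. Low counts limit Epor and Ermap, whose biological coefficients of variation were 95.9% and 93.9%.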

Other observations

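Single libraries lay at the extremes of each gene other than Sptb. Combination A320 and MetOP saline A232 both had a mean rank of 22.3 over those 8 genes among the 23 libraries, while semaglutide A238 had a mean rank of 2 and combination A251 of 2.50. Within the combination group the highest Slc4a1 value was 32.7 times the lowest, and within the healthy control group it was 1.55 times the lowest.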
